A study of Mus musculus with 18 samples.

Results

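The genes described here are 9 that respond to glucocorticoids and stress hormones, namely Nr3c1, Fkbp5, Tsc22d3, Sgk1, Klf9, Errfi1, Ddit4, Mt1 and Mt2. They were chosen by name, and every probe set annotated to only one of these symbols was taken, which gave 22 of the 22690 probe sets and 9 of the 12394 named genes on the array. The study measured RNA in the striatum, including the nucleus accumbens, of control mice and of littermates mutant for Camk4. This gene encodes CaMKIV, a calcium and calmodulin dependent kinase. The study asks how the mutation alters gene expression after cocaine, a stimulant that blocks the dopamine transporter. There were 3 control and 3 mutant mice given saline, and 6 control and 6 mutant mice given 25 mg/kg cocaine, with 1 array per animal. All were adult mice, aged 10 to 20 weeks, housed singly, handled for 5 days and killed 1 hour after an intraperitoneal injection. The labels give neither the allele of the mutants nor a promoter or Cre driver, so how fully the kinase is lost in this tissue is not known here. The animal numbers are Arabic for 12 mice, 3 of each group, and Roman for the remaining 6, which are cocaine mice, 3 of each genotype. The labels do not say what the numerals mean, and the animals are called the Arabic and Roman series below. Genotype and treatment were taken from the sample titles, because the description lines matched the titles in 0 of 18 samples.

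Glucocorticoids are adrenal steroids released under stress and with the daily rhythm. They enter cells and bind the glucocorticoid receptor, the product of Nr3c1, which moves to the nucleus and binds glucocorticoid response elements, the motifs AGAACA and TGTTCT with 3 bases between them. Fkbp5, Tsc22d3, Sgk1, Klf9, Errfi1, Ddit4 and the metallothioneins Mt1 and Mt2 are widely used readouts of this receptor, and several of them also answer to neuronal activity, cAMP, metals or low oxygen. An injection and cocaine itself both raise corticosterone in rodents, and saline animals receive the injection too. Corticosterone was not among the measurements used here.

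RefSeq windows of the 250 bases before a transcript start were searched for 8 of the 9 genes, all but Nr3c1, 16 windows in all. Of these, 4 are shown, for Sgk1 and Errfi1, which had the smallest p-values after cocaine among the brightest probe sets of the 9 genes, and for Mt1 and Mt2, which had the highest correlation between animals. Capitals mark motif matches found on either strand: the full glucocorticoid response element in Sgk1, the cAMP response element TGACGTCA in Errfi1, and the metal response element core, TGCACNC or TGCGCNC, in Mt1 and Mt2. The motif to mark was chosen for each gene, and of its windows the 1 that holds this motif is shown. In build GRCm38.p6 the windows are chr10:21993640-21993889 for Sgk1, chr4:150854820-150855069 for Errfi1, chr8:94178839-94179088 for Mt1 and chr8:94172368-94172617 for Mt2, all on the plus strand.
Sgk1: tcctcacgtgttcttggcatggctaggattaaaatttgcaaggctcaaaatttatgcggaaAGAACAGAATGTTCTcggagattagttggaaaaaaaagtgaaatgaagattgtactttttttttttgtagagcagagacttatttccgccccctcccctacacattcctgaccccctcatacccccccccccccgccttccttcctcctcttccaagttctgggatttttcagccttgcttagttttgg
Errfi1: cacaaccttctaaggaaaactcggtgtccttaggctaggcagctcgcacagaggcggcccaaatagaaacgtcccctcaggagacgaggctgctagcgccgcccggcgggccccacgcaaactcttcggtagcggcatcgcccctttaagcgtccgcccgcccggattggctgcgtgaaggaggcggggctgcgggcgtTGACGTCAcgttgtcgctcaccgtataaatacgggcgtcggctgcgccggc
Mt1: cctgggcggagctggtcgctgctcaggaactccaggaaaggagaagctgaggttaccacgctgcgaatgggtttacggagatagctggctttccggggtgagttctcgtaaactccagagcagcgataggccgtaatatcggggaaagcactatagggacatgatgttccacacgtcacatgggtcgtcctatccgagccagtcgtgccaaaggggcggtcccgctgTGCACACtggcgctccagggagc
Mt2: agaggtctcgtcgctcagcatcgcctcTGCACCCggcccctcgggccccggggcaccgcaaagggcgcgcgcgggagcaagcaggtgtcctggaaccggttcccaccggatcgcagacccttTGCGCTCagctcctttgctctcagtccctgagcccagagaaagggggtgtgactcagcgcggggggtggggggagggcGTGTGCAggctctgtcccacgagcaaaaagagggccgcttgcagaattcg
The full element begins 189 bases before the start in 1 of 6 Sgk1 windows found, and 3 of 32851 windows of this length (0.00913%) hold such an element. No other window found for these genes held it, those of Fkbp5 and Tsc22d3 included. A Ddit4 window, not shown, held the metal core 184 bases before its start. The Errfi1 element begins 51 bases before its start, 1 of 2 Errfi1 windows in the table, and 1.55% of all windows hold that motif. The metal core occurs once in the Mt1 window, 23 bases before the start, and 3 times in the Mt2 window, at 223, 128 and 50 bases. Of all windows, 21.4% hold at least 1. Bases after these annotated starts were not searched, so the counts cover the windows only and not the whole promoters. Mt2 is the nearest protein-coding neighbour of Mt1, followed on that side by Mt3 and Mt4. A match is a stretch of letters and was not tested as a binding site.

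Expression is given as the deposited log2 value of a probe set, so a difference of 1 is a doubling. Fos, the immediate early gene used to check the injection labels, lay between 4.65 and 6.52 in the 6 saline arrays and between 7.39 and 11.74 in the 12 cocaine arrays, and these ranges did not overlap. Camk4 (probe set 1426167_a_at) lay between 7.52 and 7.76 in the 9 control arrays and between 6.85 and 7.69 in the 9 mutant arrays. The labels do not say whether its probes lie in a deleted part. The array also holds Camk4 probe sets 1421941_at and 1452572_at, whose values are not given here. In mutant cocaine replicate 5, of the Roman series, the actin 3' probe set exceeded the 5' one by 3.59, against 1.57 to 2.55 in the other 17 arrays. A large 3' excess is a known sign of shortened RNA or cDNA, so results that rest on this array are also given without it. Marker genes of the other cell types the dissection can hold gave no call after cocaine: 0 of 9 measured astrocyte, 0 of 7 oligodendrocyte, 0 of 7 microglial, 0 of 6 endothelial, 0 of 2 choroid plexus and 0 of 1 cortical neuron markers. Since 0.221% of all tested probe sets were called, counts of 0 say little about cell composition. The dimmer choroid plexus marker and the cortical marker each averaged 3.64, close to background. None of the 5 red blood cell markers passed the filter on dim probe sets. All 6 measured markers of medium spiny neurons, the main striatal cell type, averaged above 11.1, and their summed level ranged from 15.39 to 15.62 over the arrays. In whole tissue, fewer cells of a type and less RNA per cell cannot be told apart.

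Of the 22 probe sets, 20 passed the filter, which asks for log2 values above 4 in 3 or more arrays, with at least 1 for each gene. The 2 left out were Klf9 1452723_at, between 2.18 and 2.25, and Mt1 1451612_at, between 2.71 and 2.79. Each gene is represented by its brightest probe set unless another is named.

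Averaged over genotypes, the cocaine minus saline difference was 0.65 ± 0.36 for Ddit4, 0.51 ± 0.13 for Sgk1, 0.30 ± 0.09 for Tsc22d3, 0.26 ± 0.06 for Errfi1 and 0.12 ± 0.06 for Klf9 (log2 ± SE). It was 0.04 ± 0.08 for Mt1, -0.01 ± 0.10 for Mt2, -0.08 ± 0.07 for Nr3c1 and -0.14 ± 0.08 for Fkbp5. None of these passed: with all 18 arrays, 0 of the 20 probe sets passed the adjusted threshold of 0.05 in limma, against 28 of 12674 tested (0.221%), all of those higher. At an unadjusted p under 0.05 there were 9 of 20 (8 higher, of which 5 are Klf9 probe sets, and 1 lower), against 5.09% of all tested. The median difference of the 9 genes was 0.12, against 0.00 over all tested probe sets. Without mutant cocaine replicate 5 the differences were the same and 4 of 20 passed: Sgk1, Errfi1 and a second Klf9 probe set were higher and a dim Fkbp5 probe set was lower, against 362 of 12674 called in all (2.86%; 0.75% higher and 2.11% lower). Since all saline animals are of the Arabic series, this averaged difference equals the difference between Arabic arrays, and the Roman arrays bear on its error only. Fitted on the 12 Arabic arrays alone, 6 of 20 passed (4 higher and 2 lower), against 3.39% of all tested (0.773% higher and 2.62% lower).

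**Figure D1:**
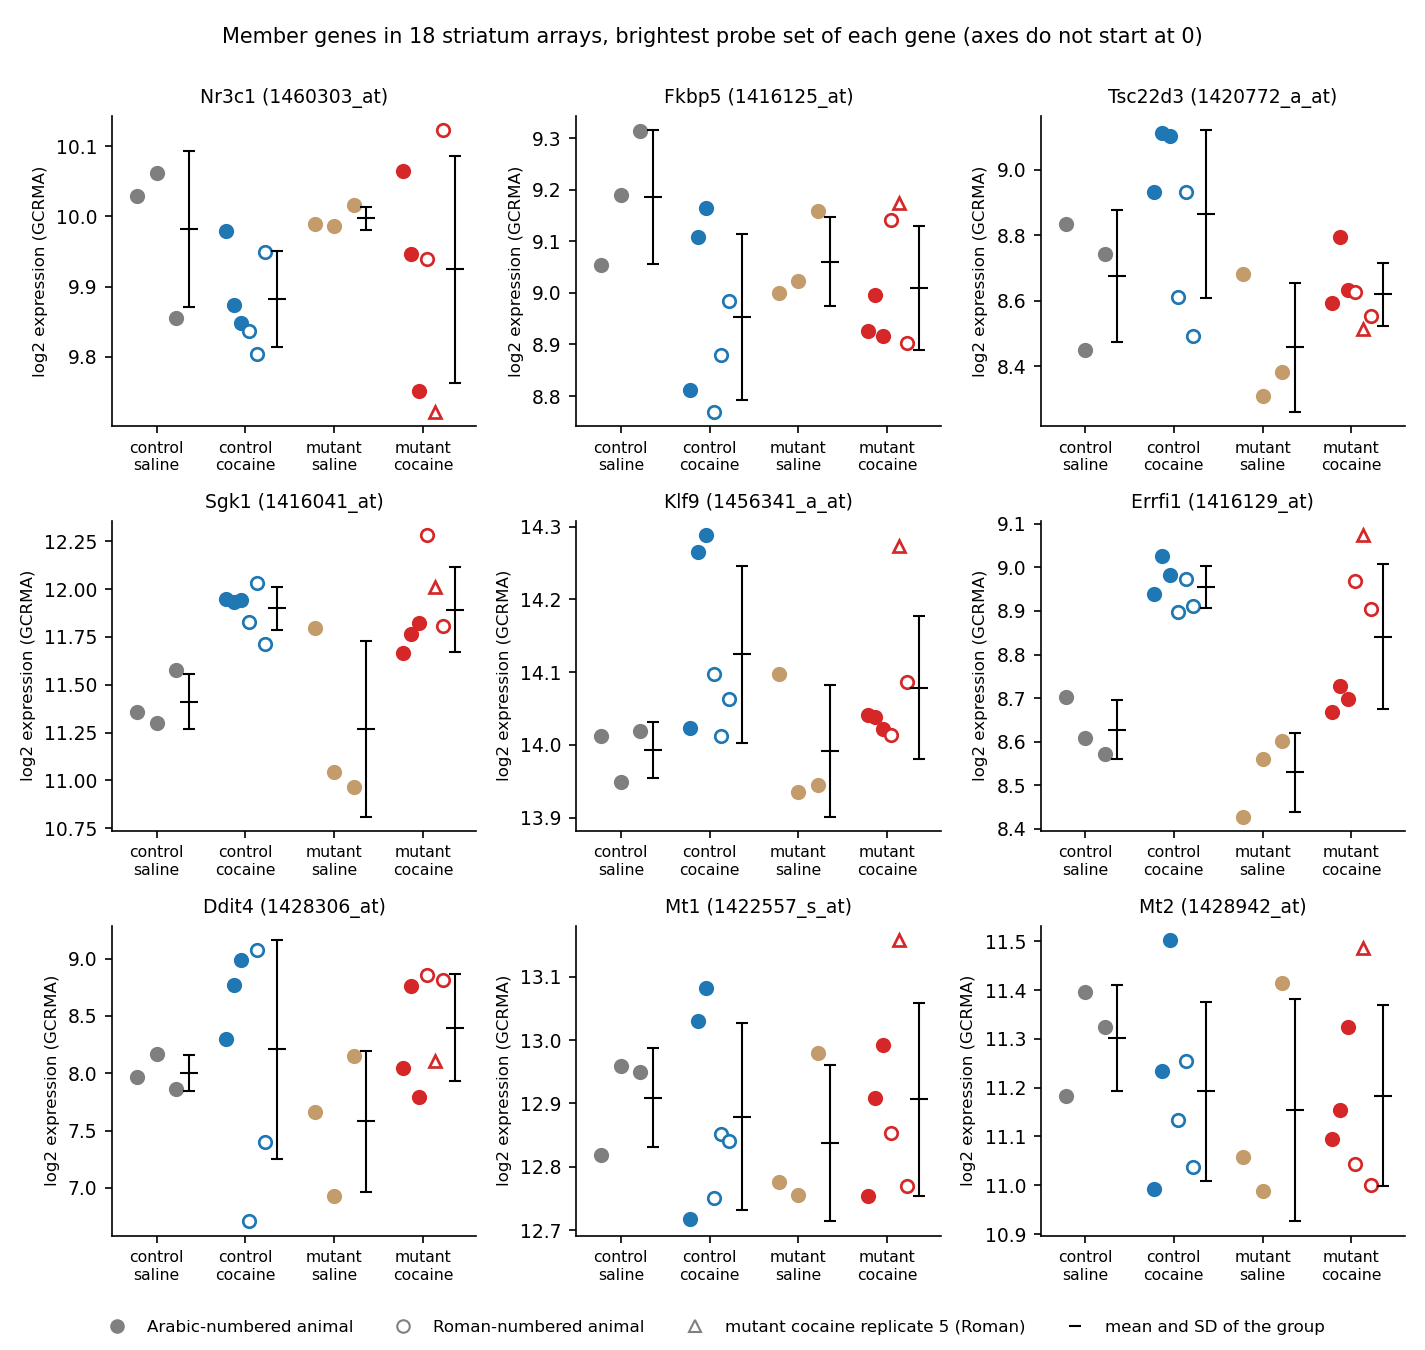
Log2 expression of the brightest probe set of each gene in every array, by group; filled points are Arabic, open points Roman animals, the triangle is mutant cocaine replicate 5, and bars give the group mean and SD (3 saline or 6 cocaine animals); the vertical axes do not start at 0. Within each genotype Errfi1 does not overlap between saline and cocaine, Sgk1 overlaps through mutant saline replicate 1, and Mt1, Mt2 and Nr3c1 overlapped across all groups.

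The receptor gene is Nr3c1. Its values were 10.03, 10.06 and 9.86 in control saline mice and 9.99, 9.99 and 10.02 in mutant saline mice. After cocaine it ranged from 9.80 to 9.98 (median 9.86) in control mice and from 9.72 to 10.12 (median 9.94) in mutant mice. The groups overlapped throughout, and the difference for cocaine was -0.08 ± 0.07 (SE; 95% interval -0.22 to 0.06; limma adjusted p = 0.871). A second bright probe set gave -0.11 ± 0.09. The third, 1421866_at, is dim and gave -0.82 ± 0.39 (adjusted p = 0.859). It separated the series: in the Arabic cocaine arrays it lay between 2.85 and 3.83, below all 6 saline arrays (3.84 to 4.52), and in the Roman cocaine arrays between 4.58 and 6.35, apart from replicate 5 of the mutant cocaine group at 2.72. On the Arabic arrays alone it passed the test (adjusted p = 0.0331).

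Fkbp5 encodes a co-chaperone that lowers the receptor's affinity for hormone and closes a short feedback loop. Its values were 9.05, 9.19 and 9.31 in control saline mice and 9.00, 9.02 and 9.16 in mutant saline mice. The cocaine arrays ranged from 8.77 to 9.16 (median 8.93) in control mice and from 8.90 to 9.17 (median 8.96) in mutant mice. The ranges overlapped, with a difference of -0.14 ± 0.08 (95% interval -0.30 to 0.03; adjusted p = 0.859). The dim Fkbp5 probe set 1448231_at gave -0.64 ± 0.27 (adjusted p = 0.859, and 0.0322 without mutant cocaine replicate 5). Its 6 Arabic cocaine values, 3.58 to 4.47, lay mostly below the saline values, 4.45 to 5.21, while the 5 Roman cocaine values other than replicate 5 lay at 4.70 to 5.36 and overlapped the saline arrays. Across the 12 cocaine arrays the deviations of both Fkbp5 probe sets from their group-and-series means had a correlation of -0.44.

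Tsc22d3 encodes GILZ, a leucine zipper protein that carries part of the anti-inflammatory action of glucocorticoids. Its values were 8.84, 8.45 and 8.74 in control saline mice and 8.68, 8.31 and 8.38 in mutant saline mice. With cocaine it ranged from 8.49 to 9.11 (median 8.93) in control mice and from 8.51 to 8.79 (median 8.61) in mutant mice. The 3 highest arrays of all were the Arabic control cocaine animals, at 8.93, 9.11 and 9.10, whereas the Roman control cocaine animals lay at 8.61, 8.93 and 8.49. The difference for cocaine was 0.30 ± 0.09 (1.23-fold; unadjusted p = 0.00592, adjusted p = 0.643), and the other probe sets gave 0.17 ± 0.18 and 0.07 ± 0.07.

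Sgk1 encodes a serum and glucocorticoid induced kinase that regulates ion channels and transporters. Its values were 11.36, 11.30 and 11.58 in control saline mice and 11.80, 11.05 and 10.96 in mutant saline mice. In cocaine animals it ranged from 11.71 to 12.03 (median 11.94) in control mice and from 11.67 to 12.28 (median 11.82) in mutant mice. All 12 cocaine arrays lay above 5 of the 6 saline arrays, and mutant saline replicate 1, at 11.80, fell inside the cocaine range. The difference was 0.51 ± 0.13 (1.42-fold, 95% interval 1.18 to 1.71; adjusted p = 0.197). Without mutant saline replicate 1 it was 0.64 ± 0.09 (adjusted p = 0.00522), when 0.205% of all tested were called higher, and without mutant cocaine replicate 5 it was 0.51 ± 0.13 (adjusted p = 0.0400).

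Klf9 encodes a zinc finger transcription factor induced by glucocorticoids and thyroid hormone in neurons. Its brightest probe set lies near the top of the scale, between 13.93 and 14.29, and gave 0.12 ± 0.06 (adjusted p = 0.859). The probe set 1436763_a_at read 10.95, 10.90 and 10.92 in control saline mice and 10.98, 10.78 and 10.83 in mutant saline mice. After cocaine it ranged from 11.04 to 11.36 (median 11.13) in control mice and from 10.99 to 11.22 (median 11.10) in mutant mice. It was the 1 of the 20 probe sets whose 12 cocaine arrays all lay above all 6 saline arrays, against 0.41% of all tested, although the gap between 10.98 and 10.99 was small. Its difference was 0.23 ± 0.06 (1.17-fold; adjusted p = 0.208 with all arrays, and 0.0391 without mutant cocaine replicate 5). Of the other 4 Klf9 probe sets, 3 gave 0.12 to 0.25 and the fourth, 1436952_at, gave -0.28 ± 0.40. In that probe set mutant cocaine replicate 5 read 5.06 while the other 5 Roman cocaine arrays read 8.04 to 8.50 and the 6 Arabic cocaine arrays 6.56 to 7.16.

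Errfi1, also called Mig6, encodes an inhibitor of the EGF receptor family that is induced by growth factors and glucocorticoids. Its values were 8.70, 8.61 and 8.57 in control saline mice and 8.43, 8.56 and 8.60 in mutant saline mice. The cocaine groups ranged from 8.90 to 9.03 (median 8.96) in control mice and from 8.67 to 9.07 (median 8.82) in mutant mice. Within each genotype no cocaine array overlapped a saline array. The difference was 0.26 ± 0.06 (1.20-fold, 95% interval 1.09 to 1.31; adjusted p = 0.165), and it passed without mutant cocaine replicate 5 (adjusted p = 0.0193). The dimmer probe set 1419816_s_at gave -0.28 ± 0.17 (adjusted p = 0.859), opposite in sign, and was higher in the Roman than in the Arabic series by 0.76 ± 0.17 (adjusted p = 0.0190).

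Ddit4, also called Redd1, encodes an inhibitor of the mTOR pathway induced by glucocorticoids, low oxygen and energy stress. Its values were 7.97, 8.17 and 7.86 in control saline mice and 7.66, 6.93 and 8.15 in mutant saline mice. After cocaine it ranged from 6.71 to 9.08 (median 8.53) in control mice and from 7.80 to 8.86 (median 8.43) in mutant mice. It had the widest spread between animals of one group among the brightest probe sets of the 9 genes, with an SD of 0.96 in the control cocaine group. The difference was 0.65 ± 0.36 (95% interval -0.11 to 1.42; adjusted p = 0.859).

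Mt1 and Mt2 encode metallothioneins, small proteins that bind zinc and copper and are induced by metals as well as by glucocorticoids. Mt1 read 12.82, 12.96 and 12.95 in control saline mice, 12.78, 12.76 and 12.98 in mutant saline mice, and 12.72 to 13.16 over the 12 cocaine arrays (median 12.85). Mt2 read 11.18, 11.40 and 11.32 in control saline mice, 11.06, 10.99 and 11.41 in mutant saline mice, and 10.99 to 11.50 over the cocaine arrays (median 11.14). All groups overlapped. The differences were 0.04 ± 0.08 for Mt1 (95% interval -0.12 to 0.20; adjusted p = 0.933) and -0.01 ± 0.10 for Mt2 (95% interval -0.22 to 0.20; adjusted p = 0.988). The transcripts are close paralogs, and cross-hybridisation between their probes was not tested.

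**Figure D2:**
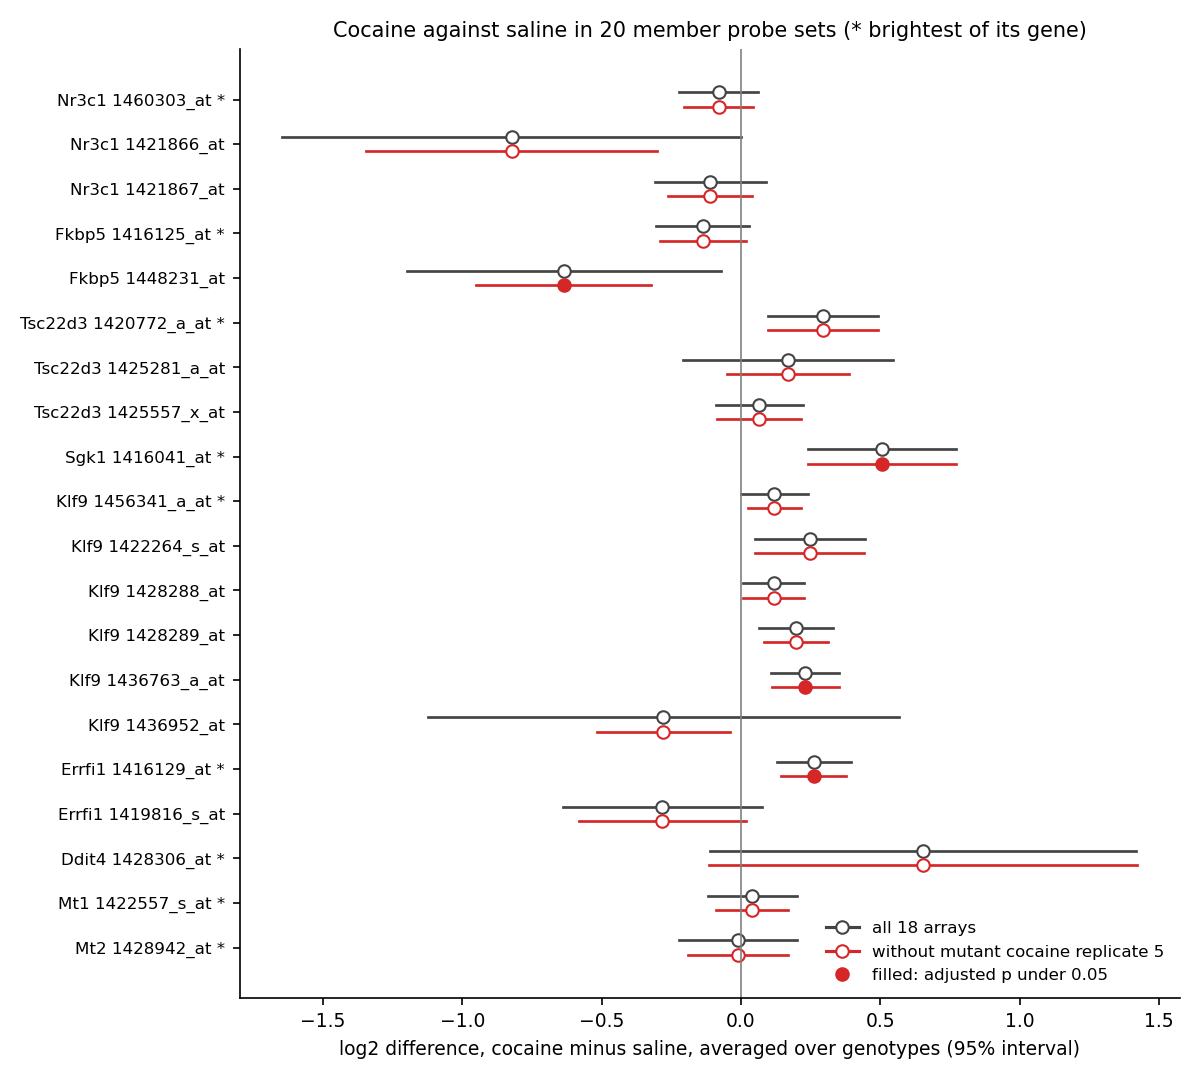
Difference in log2 expression between cocaine and saline, averaged over genotypes, with 95% intervals for 20 probe sets, in all 18 arrays (grey) and without mutant cocaine replicate 5 (red); filled points passed an adjusted p of 0.05. The estimates coincide, and the red intervals are narrower for Klf9 1436952_at, Nr3c1 1421866_at and Fkbp5 1448231_at; 4 points pass in the smaller set and 0 in the full set.

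Several probe sets differed between the series or in mutant cocaine replicate 5. Replicate 5 differed by more than 1 from the mean of the other Roman mutant arrays in 4 of 20 probe sets, against 9.17% of all tested: Klf9 1436952_at by -3.06, Nr3c1 1421866_at by -2.34, Fkbp5 1448231_at by -1.95 and Tsc22d3 1425281_a_at by -1.24. With all arrays, 3 of 20 probe sets differed between the Roman and the Arabic series at the threshold, against 6.16% of all tested. All 3 were higher in the Roman series, against 2.54%, namely Nr3c1 1421866_at (1.54 ± 0.39), Errfi1 1419816_s_at (0.76 ± 0.17) and Klf9 1428288_at (0.22 ± 0.05). Without replicate 5 there were 7 of 20, against 29.8%. The part that RNA quality or the series plays in the members' differences was not tested.

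Mutant and control mice were compared in each treatment. After saline, 0 of 20 probe sets passed the threshold and 0 had an unadjusted p under 0.05, against 0 of 12674 (0%) and 2.76% of all tested. After cocaine, 0 of 20 passed and 5 had an unadjusted p under 0.05, all lower in mutants, against 0% and 11.6% of all tested. Among the brightest probe sets the lowest p belonged to Tsc22d3, at -0.24 ± 0.09 in mutants after cocaine (95% interval -0.44 to -0.05; unadjusted p = 0.0182, adjusted p = 0.427). For Errfi1 the difference was -0.11 ± 0.06 (interval -0.25 to 0.02; adjusted p = 0.448), and for Sgk1 -0.01 ± 0.13 (interval -0.27 to 0.26; adjusted p = 0.985). Klf9 gave -0.05 ± 0.06, Nr3c1 0.04 ± 0.07, Fkbp5 0.06 ± 0.08, Mt1 0.03 ± 0.08, Mt2 -0.01 ± 0.10 and Ddit4 0.19 ± 0.36. After saline the differences of the brightest probe sets ran from -0.42 ± 0.51 for Ddit4 to 0.02 ± 0.09 for Nr3c1, with Tsc22d3 at -0.22 ± 0.13, Mt2 at -0.15 ± 0.14, Sgk1 at -0.14 ± 0.18, Fkbp5 at -0.13 ± 0.11, Errfi1 at -0.10 ± 0.09, Mt1 at -0.07 ± 0.11 and Klf9 at 0.00 ± 0.08. The intervals after cocaine leave room for genotype differences of about the size of the cocaine differences in Tsc22d3, Errfi1 and Klf9.

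The genotypes were also set side by side within each series after cocaine, without a test of the difference between series. Among Arabic animals, Errfi1 was 8.98 ± 0.04 in controls and 8.70 ± 0.03 in mutants (SD, n = 3 each), with no overlap, whereas among Roman animals it was 8.93 ± 0.04 and 8.98 ± 0.09. Tsc22d3 was 9.05 ± 0.10 and 8.67 ± 0.11 in Arabic controls and mutants and 8.68 ± 0.23 and 8.56 ± 0.06 in Roman ones. In the Arabic animals 6 of 20 probe sets did not overlap between genotypes, all lower in mutants, against 6.03% of all tested in that direction: Sgk1, Errfi1, 2 for Tsc22d3, 1 for Klf9 and the dim one for Fkbp5. With the Arabic arrays alone none of the 20 passed the test after cocaine, with Errfi1 at -0.28 ± 0.07 (adjusted p = 0.626) and Tsc22d3 at -0.38 ± 0.12 (adjusted p = 0.626), and 8 had an unadjusted p under 0.05.

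The cocaine response itself was estimated in each genotype. No Roman animal received saline, so these estimates take in the Roman cocaine arrays through a series term shared by both genotypes. In control mice 0 of 20 passed, against 0.11% of all tested, and in mutant mice 0 of 20, against 0.0473%, and 7 and 8 had an unadjusted p under 0.05, against 2.6% and 6.95%. Sgk1 differed by 0.44 ± 0.17 in control and 0.58 ± 0.17 in mutant mice (adjusted p = 1 and 0.653). Errfi1 differed by 0.27 ± 0.08 and 0.25 ± 0.08 (adjusted p = 0.957 and 0.660), and Tsc22d3 by 0.31 ± 0.12 and 0.28 ± 0.12 (adjusted p = 1 and 0.660). Klf9 gave 0.14 ± 0.07 and 0.10 ± 0.07, and Ddit4 0.35 ± 0.48 and 0.96 ± 0.48. Nr3c1 gave -0.09 ± 0.09 and -0.07 ± 0.09, and Fkbp5 -0.23 ± 0.10 and -0.05 ± 0.10. Mt1 gave -0.01 ± 0.10 and 0.09 ± 0.10, and Mt2 -0.08 ± 0.13 and 0.06 ± 0.13. On the Arabic arrays alone 0 of 20 passed in either genotype, against 43 and 3 of 12674 tested. The median of the 9 genes was then 0.20 in control and 0.05 in mutant mice, against 0.14 and 0.10 with all arrays. In Arabic controls Errfi1 read 8.57 to 8.70 after saline and 8.94 to 9.03 after cocaine. In Arabic mutants it read 8.43 to 8.60 and 8.67 to 8.73. Sgk1 averaged 11.41 and 11.94 in Arabic controls, and 11.27 and 11.75 in Arabic mutants. Without mutant saline replicate 1, Sgk1 passed in mutant mice at 0.84 ± 0.13 (adjusted p = 0.0366), against 0.0316% of all tested called higher. The arrays of cocaine and saline did not overlap for 6 of 20 probe sets in control mice, all higher (4 of Klf9, with Sgk1 and Errfi1), against 1.38% of all tested, and for 3 of 20 in mutant mice, all higher (Errfi1, Klf9 1436763_a_at and Tsc22d3 1425557_x_at), against 1.79%.

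The difference between these responses, mutant minus control, passed in 0 of 20 probe sets and had an unadjusted p under 0.05 in 0, against 0% and 2.68% of all tested. It was 0.14 ± 0.22 for Sgk1 (95% interval -0.32 to 0.60), -0.02 ± 0.11 for Errfi1 (-0.25 to 0.21) and -0.03 ± 0.16 for Tsc22d3 (-0.37 to 0.32). For Ddit4 it was 0.61 ± 0.63 (-0.72 to 1.93), an interval wide in both directions. For Klf9 it was -0.05 ± 0.10 (-0.25 to 0.16), for Nr3c1 0.03 ± 0.12 (-0.22 to 0.27) and for Fkbp5 0.18 ± 0.14 (-0.11 to 0.47). For Mt1 it was 0.10 ± 0.13 (-0.18 to 0.38) and for Mt2 0.14 ± 0.17 (-0.23 to 0.51). Fitted on the Arabic arrays alone, 0 of 20 passed, and the 9 genes ran from -0.19 (Errfi1) to 0.09. Of the 9 genes, 4 lay above 0 there, against 6 with all arrays.

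**Figure D3:**
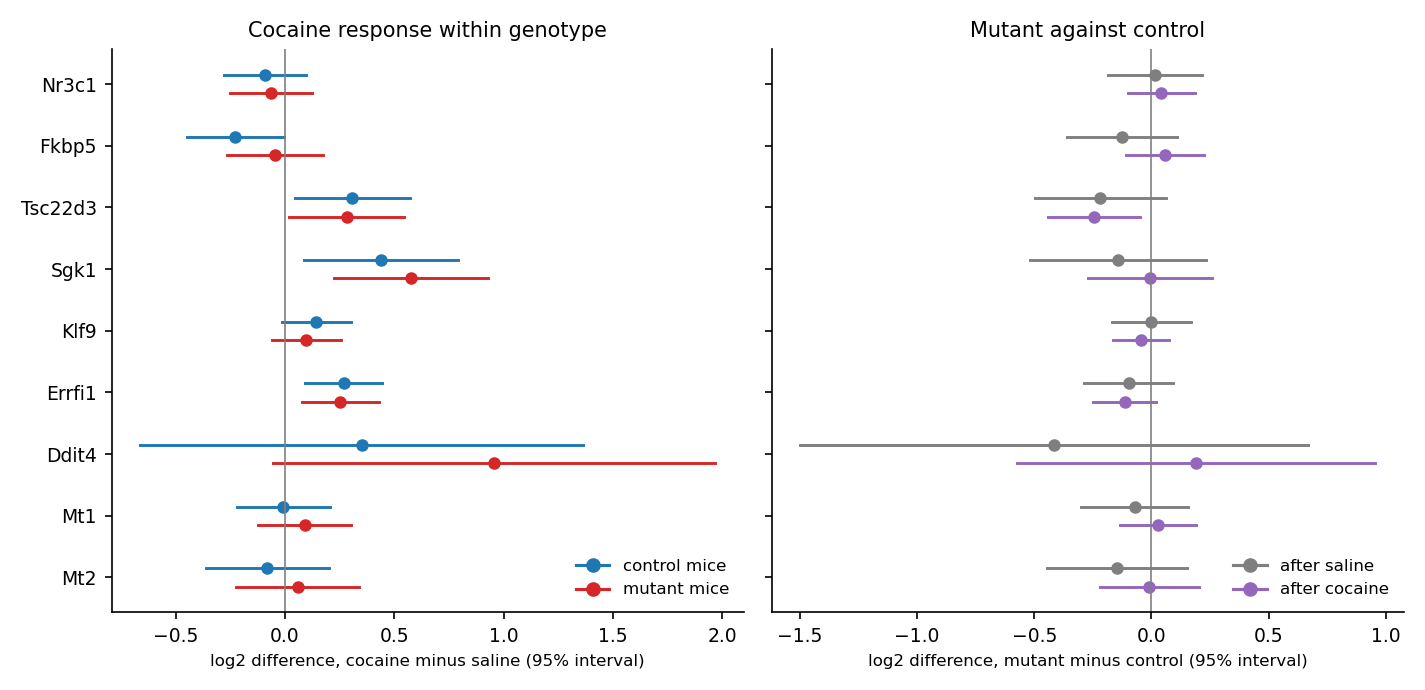
Left, log2 difference between cocaine and saline in control (blue) and mutant (red) mice; right, log2 difference between mutant and control mice after saline (grey) and after cocaine (purple); points are limma estimates from all 18 arrays with 95% intervals. The intervals of both genotypes overlap for every gene, and Ddit4 has the widest.

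Whether the genes move together was asked across the 12 cocaine animals. Each array was expressed as its deviation from the mean of its own genotype and series, so that group differences do not enter, and all 36 pairs were compared by exact permutation within those 4 sets of 3 arrays. The mean Pearson correlation over the 36 pairs was 0.21, with 27 above 0, and over all pairs of tested probe sets it was 0.01. It was 0.13 without control cocaine replicate 1, 0.28 after each array was centred on its median, where all pairs of tested probe sets averaged 0.08, and 0.06 with replicate number means removed as well, where 18 of 36 pairs lay above 0. After adjustment over the 36 pairs, 1 passed, between Nr3c1 and Mt2, and it was negative.

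Mt1 and Mt2 had the highest correlation (r = 0.90, Spearman's rho = 0.90, exact permutation p = 0.00386, adjusted p = 0.0556, n = 12). Without the 2 arrays farthest from the median of Mt1 it was 0.80. Over all 18 arrays the pair passed (r = 0.91, adjusted p = 0.0131), and likewise over the 12 Arabic arrays, saline included (r = 0.92, adjusted p = 0.0278), and in the 6 Roman arrays it was 0.90. Mutant cocaine replicate 5 was the highest array in Mt1 and control cocaine replicate 1 the lowest, and without replicate 5 the correlation was 0.83. In this measure, over those 11 arrays, Mt2 ranked 106th of 11748 named probe sets by likeness to Mt1.

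Nr3c1 had negative correlations with both metallothioneins. With Mt2 it gave r = -0.83 and rho = -0.87, with exact permutation p = 0.000772, the smallest these permutations can give, and adjusted p = 0.0278 (n = 12). The pair did not pass over all 18 arrays (r = -0.63, adjusted p = 0.104) or with the mean of all probe sets of each gene (r = -0.73, adjusted p = 0.139). With Mt1 it gave r = -0.82 and rho = -0.81 (exact permutation p = 0.00463, adjusted p = 0.0556). Without the 2 arrays farthest from the median of Nr3c1, the correlations were -0.75 and -0.69. Mutant cocaine replicate 5 had the lowest Nr3c1 and a high Mt1 and Mt2; without it they were -0.71 and -0.69. In the 11 arrays that remain no pair passed, and with these 432 permutations a lone pair cannot reach the threshold. When each array was first centred on its median, no pair passed either. Within the series, Nr3c1 and Mt2 gave -0.92 in the 6 Roman arrays, where 36 permutations cannot give a call, and -0.41 in the 12 Arabic arrays, saline included (exact permutation p = 0.13, adjusted p = 0.389).

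**Figure D4:**
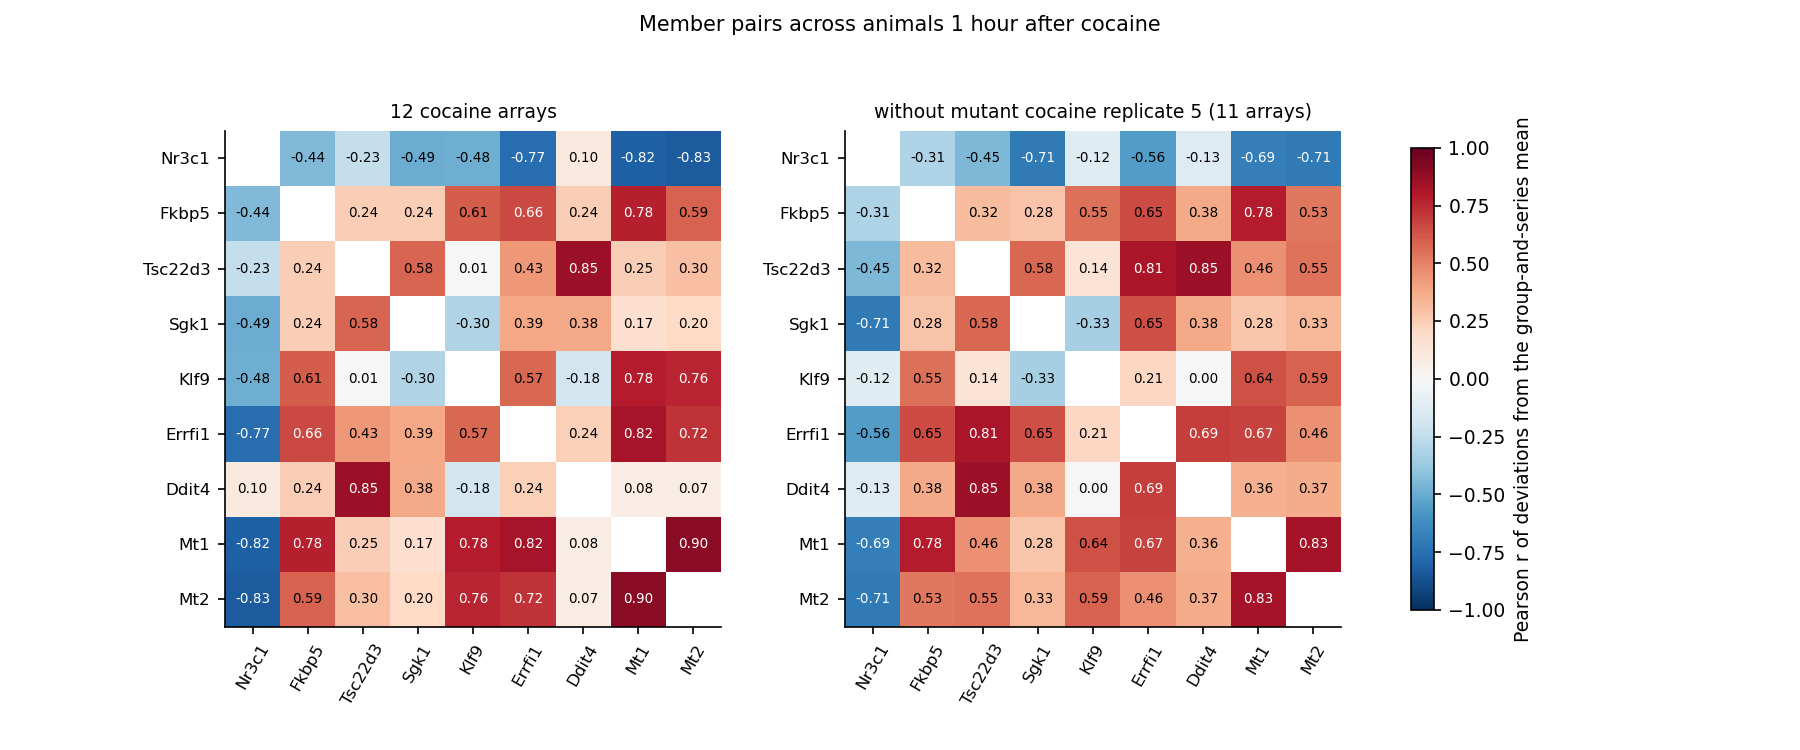
Pearson correlation of the deviations of each pair of genes across animals 1 hour after cocaine, in all 12 cocaine arrays (left) and in the 11 without mutant cocaine replicate 5 (right), on a scale from -1 (blue) to 1 (red). The row of Nr3c1 is mostly blue, and Mt1 with Mt2 and Tsc22d3 with Ddit4 are the darkest red cells in both panels.

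Tsc22d3 and Ddit4 had the next highest correlation (r = 0.85, rho = 0.76, exact permutation p = 0.0262, adjusted p = 0.157, n = 12), which was also 0.85 without mutant cocaine replicate 5. It was 0.84 in the Roman arrays and 0.32 in the Arabic arrays, saline included. Ddit4 ranked 23rd of 11746 named probe sets by likeness to Tsc22d3, over those 11 arrays. Errfi1 had r = 0.82 with Mt1 (exact permutation p = 0.0154, adjusted p = 0.111), which was 0.67 without replicate 5. With Tsc22d3 it had r = 0.43, which was 0.81 without replicate 5. Fkbp5 had r = 0.78 with Mt1 (exact permutation p = 0.0154, adjusted p = 0.111). Over all 18 arrays that pair passed (r = 0.79, adjusted p = 0.0224).

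Sgk1 and Klf9 had a negative correlation that did not pass (r = -0.30, rho = -0.44, exact permutation p = 0.585, adjusted p = 0.702). Sgk1 was closest to Tsc22d3 (r = 0.58, rho = 0.58, exact permutation p = 0.0617, adjusted p = 0.278). Without mutant cocaine replicate 5 it was closest to Errfi1 (r = 0.65), with Tsc22d3 at 0.58. The pair of Nr3c1 and Errfi1 depended on the probe sets used, with r = -0.77 from the brightest probe sets and 0.85 from the mean of all probe sets of each gene. From the brightest probe sets it was -0.56 without mutant cocaine replicate 5.

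**Figure D5:**
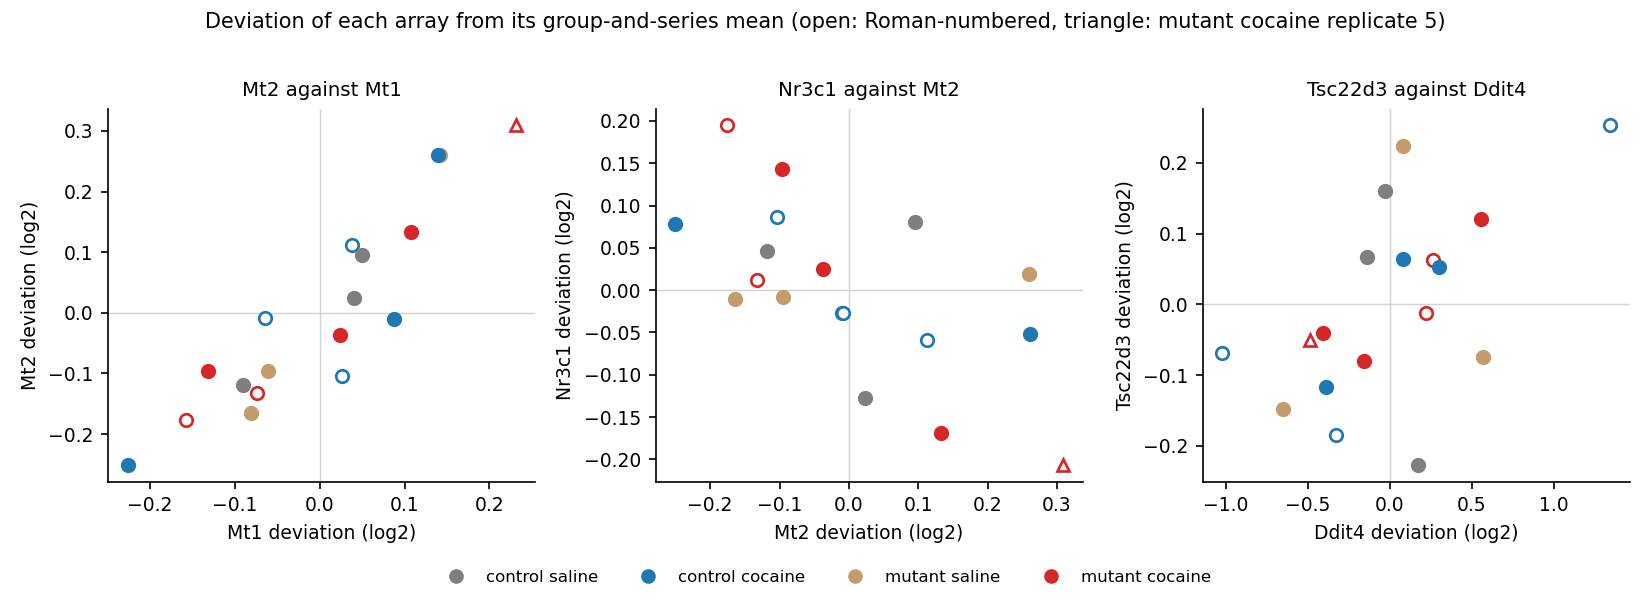
Deviation of each of the 18 arrays from its group-and-series mean in log2 units for Mt2 against Mt1, Nr3c1 against Mt2 and Tsc22d3 against Ddit4; colours give the groups, open symbols the Roman series and the triangle mutant cocaine replicate 5. Mt1 and Mt2 lie along a rising line (r = 0.90 in the 12 cocaine arrays), Nr3c1 and Mt2 along a falling one in the cocaine arrays (r = -0.83), and Tsc22d3 and Ddit4 along a rising one (r = 0.85).

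The genes were also set against Fos, against Per1, a clock gene with a known glucocorticoid response element, and against the actin 3' excess, 27 relations in all across the 12 cocaine arrays, and 0 passed after adjustment. Klf9 was closest to Per1 (r = 0.89, rho = 0.92, exact permutation p = 0.00772, adjusted p = 0.104) and had r = 0.82 without the 2 arrays farthest from the median of Per1. With the actin excess Klf9 gave a correlation that did not pass either (r = 0.76, rho = 0.85, exact permutation p = 0.00617, adjusted p = 0.104). Both values are for the brightest Klf9 probe set. Its deviations in the same arrays had correlations with the other Klf9 probe sets from -0.78 (1422264_s_at) to 0.52 (1428289_at). For Nr3c1 the correlation with the actin excess was -0.60, and 0.12 without mutant cocaine replicate 5. For Mt2 it was 0.67 and 0.16.

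By likeness across the 11 cocaine arrays without replicate 5, the nearest named probe set was Prr13 for Sgk1 (r = 0.95), Ldhb for Fkbp5 (0.96), Hacd1 for Tsc22d3 (0.96), Sphk2 for Klf9 (0.98), Rps6kl1 for Nr3c1 (0.97), Rab43 for Mt1 (0.96), Pim3 for Mt2 (0.96), Pip5k1a for Errfi1 (0.97) and Gabbr1 for Ddit4 (0.97). No gene of the 9 was among the 3 nearest of another. These are the highest of 11746 to 11748 correlations over 11 arrays that share their processing, and they are given as a description.

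Other genes of the glucocorticoid pathway were taken from lists. Of 27 further gene symbols known to rise with glucocorticoids, 2 of which name the same gene, 14 were measured. Among those 14, 2 rose after cocaine at the threshold while 0 fell, against 0.221% of all tested called higher. Dusp1, a phosphatase that switches off MAP kinases, rose by 2.09 ± 0.29 (limma adjusted p = 0.0022), and Per1 rose by 0.87 ± 0.15 (adjusted p = 0.0168). The median difference of the 14 was 0.38, against 0.00 over all tested. Without mutant cocaine replicate 5, 6 of the 14 rose, against 0.75% of all tested. Dusp1 and Per1 are also immediate early genes of neuronal activity, as Fos is.

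Of 14 receptors, chaperones and cofactors of the pathway, 7 were measured and 0 passed, with a median of -0.02. The brightest were the chaperones Hspa8 (0.02 ± 0.05) and Hsp90aa1 (-0.03 ± 0.04), which hold the receptor ready for hormone. Of 14 family relatives of the 9 genes, 10 were measured and 0 passed, with a median of 0.00, among them Tsc22d1 (0.07 ± 0.05) and Fkbp1a (-0.03 ± 0.03), the brightest. Of 15 metal and hypoxia partners of Mt1, Mt2 and Ddit4, 11 were measured and 0 passed, with a median of 0.07. The brightest were Rheb, the GTPase that activates mTOR (0.07 ± 0.05), and the glucose transporter Slc2a1 (0.27 ± 0.09, adjusted p = 0.819). Chosen after its value was seen, Vegfa, a target of the hypoxia factor, differed by 0.58 ± 0.13 (adjusted p = 0.128, and 0.0287 without mutant cocaine replicate 5).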

How the data were processed

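RNA of the striatum from 18 mice was hybridised to Affymetrix arrays, 1 per animal. The deposited log2 values were made by the authors with GCRMA in R 2.4.1, per the submitters' processing notes; no source used here gives its settings. GCRMA equalises the arrays, so a change in total signal is not seen, and it compresses dim probe sets. The number of arrays limits the precision.

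After 64 control probe sets were left out, 12674 of 22690 probe sets had log2 values above 4 in 3 or more arrays. Limma 3.58.1 in R 4.3.3 fitted the 4 groups and the numbering series, with a variance trend, two-sided moderated tests and Benjamini-Hochberg adjustment over all 12674 (13 residual and 3.13 prior degrees of freedom). Correlations between genes were tested in Python 3.11.15 by exact two-sided permutation. The fit was tested on simulated data. Genes were named from the platform annotation, where only probe sets with 1 symbol were used.

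The 9 genes, the lists of pathway genes and markers, the tests and the rule for named genes were chosen with earlier results of these data known. All 9 genes are named in each limma contrast over all arrays; from each list, genes past the threshold after cocaine, or else the 2 brightest, are named; for likeness, the nearest probe sets are named. Alternatives were the replicate number or animal number as a block, no series term, the Arabic series alone, array weights, an actin term, other filters, an ordinary linear model, median centring, a looser threshold, only the groups compared, and each array left out in turn. The labels call the animals separate, with each array from 1 animal.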

Additional observations from a re-analysis of the deposited data

Results flagged for a closer look

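In groups of 6 arrays, the gap between the highest or lowest array and its nearest neighbour, divided by the range of the group, was compared with Dixon's critical value of 0.625. Of 40 such tests on the 20 probe sets, 2 exceeded it, and chance alone flags about 1 in 20. Klf9 (1456341_a_at) was highest in mutant cocaine replicate 5, at 14.27, with the next array of that group at 14.09; this is also the array with the largest actin 3' excess, 3.59. Tsc22d3 (1425557_x_at), a probe set near the filter, was lowest in control cocaine replicate 4, at 3.8, with the next array at 4.03.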

How the results depend on the processing

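After cocaine, averaged over genotypes, the number of the 20 probe sets past the threshold went from 0 to 3 without the series term, 6 on the Arabic arrays alone, 1 with array weights and 1 with an actin term and without mutant cocaine replicate 5. It ranged from 0 to 4 when each array was left out in turn, with 4 without mutant cocaine replicate 5 and 1, Sgk1, without mutant saline replicate 1, and in mutant mice from 0 to 1, again Sgk1. In the contrasts of cocaine in control mice, mutant against control in either treatment, and the difference between responses, the count was 0 under every alternative run. Signs of the averaged cocaine difference changed for Mt2, in 6 of 30 alternatives, and for no other of the 9 genes. Signs of the difference between responses changed in 6 of 30 alternatives for Errfi1 and for Tsc22d3. They changed in 3 for Nr3c1, 2 for Sgk1 and for Klf9, 1 for Ddit4 and for Mt1, and 0 for Fkbp5 and for Mt2. The number of correlated pairs went from 1, Nr3c1 with Mt2, to 2 over all 18 arrays (Mt1 with Mt2 and with Fkbp5), 0 over the Roman arrays alone, 0 after median centring, 4 other pairs with the mean of all probe sets, and 3 over the 17 arrays without mutant cocaine replicate 5 (added after seeing the data); leaving out each cocaine array gave 0 to 3, with 3 without control cocaine replicate 4 or 6, and designs of 11 or 6 arrays cannot bring a lone pair past the threshold. The mean correlation, 0.2064 with the 12 cocaine arrays, was 0.1259 over all 18, 0.1566 over the Arabic arrays, 0.1222 over the Roman arrays, 0.2798 after median centring, 0.1411 over the 17 arrays, and 0.1265 to 0.2595 when each array was left out. For Nr3c1 and Errfi1 the correlation was 0.85 with the mean of all probe sets and -0.77 with the brightest. Deviations of arrays with the same replicate number had correlations from -0.23 to 0.31, with 7 of 21 above 0.1. By this measure 8 of 18 arrays were closest to their own number. Blocks of consecutive animal numbers gave 9 of 21 and 10 of 18. Each such block holds 1 mouse of each group in the Arabic series, and 1 cocaine mouse of each genotype in the Roman series. With these as the block, 0 of 20 probe sets and 16 of 12674 tested passed in the averaged cocaine contrast. Means of these blocks were not removed from the correlations between genes. With the replicate number as a block, 0 of 20 probe sets passed in each contrast, and removing replicate number means gave a mean correlation of 0.0613. A few dim probe sets near the filter carry little signal over background, and 3 saline arrays per genotype limit the precision.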
